A study of Mus musculus with 4 samples.

Results

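The 42 genes described here encode lysosomal hydrolases, cathepsins, their activators and carriers, proteins of the lysosomal membrane, parts of the proton pump that acidifies the organelle, and the MiT/TFE transcription factors. They were taken by gene symbol from a list of lysosomal genes, by a rule that names symbols and uses no measured value, out of 56980 genes in the count table, and each symbol matched 1 row. The genes and lists were nonetheless chosen with earlier results of these data known. The RNA came from adult mesenchymal stromal cells (MSCs), non-hematopoietic cells of the bone marrow niche, of 4 male wild-type C57BL/6J mice aged 14 weeks. The sort took 100 cells per mouse that carried CD51 and PDGFRa and lacked CD45, Ter119, CD31 and Sca1, and full-length poly(A) RNA was amplified by PCR and sequenced as 1 library. The mice carried no transgene and received no treatment, and all 4 libraries form 1 group, so that no conditions are compared. A library of so few sorted cells is a sample of a mixed stromal population rather than of a clone or a line.

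Lysosomes break down protein, glycan and lipid with acid hydrolases. Most of these enzymes receive mannose 6-phosphate in the Golgi and reach the lysosome by receptors for that tag, while the membrane is lined by heavily glycosylated proteins and acidified by the vacuolar ATPase. In bone, cathepsin K is best known from osteoclasts, where it cleaves collagen at the resorption surface, and cathepsin S from antigen-presenting cells, where it processes the invariant chain. TFEB, TFE3 and MITF bind an E-box with the core CACGTG, and many lysosomal genes carry a longer form of it, the CLEAR element, near their start.

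The libraries held 43545349, 26050230, 42747050 and 22738604 counts on genes in mice 1 to 4, of which the lysosomal genes took between 177832 and 406735. Mice 1 and 3 thus had the deepest libraries, and the part of depth in any order of mice given below was not tested. All 6 markers of the sorted stroma exceeded 1 TPM in every mouse. TPM is the count divided by the length of the gene's merged exons and scaled to 1000000 per library. Genes of osteoblasts were high in the same libraries and summed to between 122273 and 265868 TPM. Erythroid genes summed to 4980 TPM in mouse 1, 35.0 in mouse 2, 1708 in mouse 3 and 358 in mouse 4. In mice 1 to 4, adipocyte markers summed to 199, 962, 439 and 234 TPM and chondrocyte markers to 249, 25.6, 111 and 8.30. Adipoq made up 184, 635, 399 and 185 TPM of the adipocyte sum. Lpl added 290 TPM in mouse 2, and Plin1 had 0 counts in all mice. Comp made up 219, 20.5, 98.7 and 6.91 TPM of the chondrocyte sum. Acan had 0 counts in mice 2 and 3, and Matn3 was counted in mouse 1 alone. Neutrophil markers summed to 39.7, 19.7, 6.84 and 7.84 TPM. The largest parts were Elane in mouse 1 (15.1 TPM), S100a9 in mice 2 and 3 (19.6 and 2.88) and S100a8 in mouse 4 (7.81). Ltf and Ngp had 0 counts in all mice. Ly6a, which encodes the excluded antigen Sca1, had 1, 120, 0 and 144 counts (0.0472, 8.95, 0 and 11.6 TPM). Of the lymphoid markers 4 of 5, and of the endothelial markers 2 of 5, had 0 counts in all mice.

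Promoter windows that span 250 bases before and 50 bases from the annotated start on were found for 38 of the 42 genes in RefSeq (GRCm38.p6). The E-box core CACGTG, which reads the same on both strands, was present in a window of 13 of these 38 genes (34.2%). It occurs in 8.09% of all 27025 genes with a window and in 12.1% of the 7762 such genes that are protein-coding and past the expression cutoff used here. The 8-base form TCACGTGA, which contains the core and is also its own reverse complement, was found in 6 of 38 (15.8%), against 1.12% of all genes and 2.43% of the expressed ones. The form TCACGTG on either strand, which overlaps both others, was found in 11 of 38 (28.9%), against 4.29% and 7.28%. A match is a description of the letters, not evidence of a bound site.

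The stretches of the 6 genes with the 8-base form and of Lamp1, which had more cores than any other of the 42 genes, are shown because they carry this pattern, with the core in capitals and each read on the strand of its gene. Their positions in GRCm38.p6 are chr8:13159088-13159160 for Lamp1, chr8:3500436-3500491 for Mcoln1, chr2:164833749-164833787 for Ctsa, all on the plus strand, and chrX:134601182-134601244 for Gla, chr7:142387908-142387937 for Ctsd, chr8:105566058-105566079 for Atp6v0d1 and chr16:44139373-44139402 for Atp6v1a, all on the minus strand.
Lamp1: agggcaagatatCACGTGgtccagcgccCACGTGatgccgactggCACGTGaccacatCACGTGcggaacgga
Mcoln1: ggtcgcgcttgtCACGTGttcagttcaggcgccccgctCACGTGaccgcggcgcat
Ctsa: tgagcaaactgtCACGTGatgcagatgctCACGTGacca
Gla: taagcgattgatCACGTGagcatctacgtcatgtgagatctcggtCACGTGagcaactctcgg
Ctsd: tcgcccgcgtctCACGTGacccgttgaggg
Atp6v0d1: ccctactgcggtCACGTGagac
Atp6v1a: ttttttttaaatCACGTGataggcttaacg

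Lamp1, which encodes a major glycoprotein of the lysosomal membrane, had 4 cores, at 61, 45, 28 and 15 bases upstream of its start. Mcoln1, the lysosomal calcium channel, had cores at 71 and 45 bases upstream. Gla, which encodes alpha-galactosidase A, had its cores farther away, at 227 and 194 bases upstream. The other genes with a core were Ctsf, Ctsl, Lgmn, Gaa, Glb1 and Naglu, and those of Ctsl and Ctsf are not in the TCACGTG form. No core was in the windows of Ctsk, Ctss or Cd63, or of the factors Tfeb, Tfe3 and Mitf themselves, which says only that these letters are not in those windows. The median over genes of the median TPM was 67.9 for the 13 genes with a core and 30.0 for the 25 without.

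**Figure D1:**
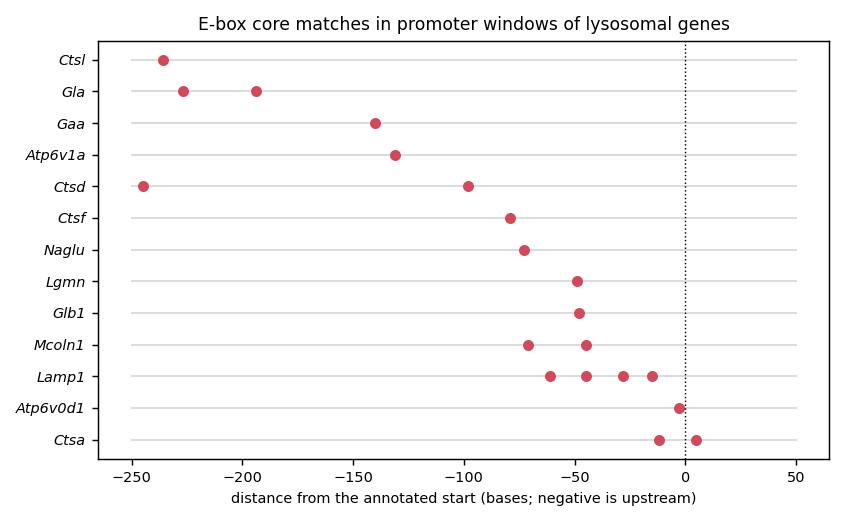
Distance of each CACGTG core from the annotated start, in bases, with negative values upstream, for the 13 lysosomal genes that have a core in a promoter window. Each point is 1 core and each grey line the window searched, and Lamp1 shows 4 cores within 61 bases of its start.

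Of the 42 lysosomal genes, 40 had a median TPM above 1 over the 4 mice, the cutoff for expression. The same cutoff was passed by 22.9% of all 52125 genes with a known length and by 44.2% of the 21922 protein-coding ones. Above 1 TPM in every mouse were 35 of the 42 genes, against 30.1% of protein-coding genes, and 14 of the 42 had a median above 100 TPM, against 4.11%. The genes not past the cutoff were Ctss and Mitf, and those past it in the median but not in every mouse were Gla, Idua, Npc1, Tfeb and Tfe3. The median over the 42 genes of the median TPM was 43.2, and over all protein-coding genes it was 0.135. In bulk libraries fewer cells that express a gene and less RNA of it per cell cannot be told apart.

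**Figure D2:**
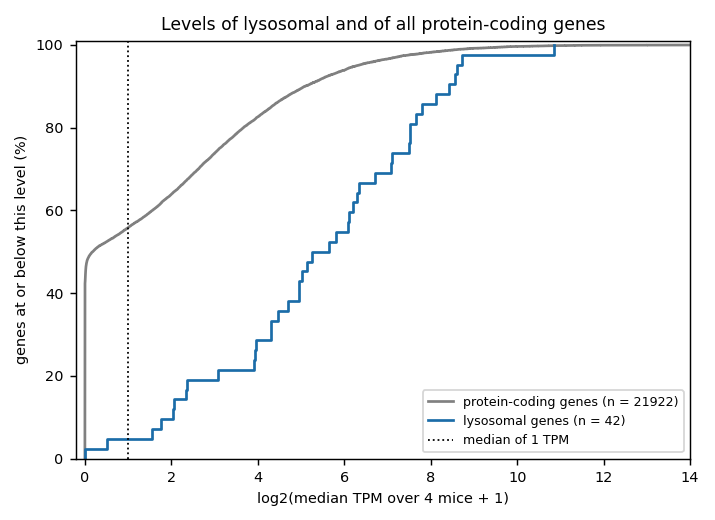
Percentage of genes at or below each level, on a log2(median TPM + 1) axis, for the 42 lysosomal genes and for 21922 protein-coding genes. The dotted line marks 1 TPM, which 40 of 42 lysosomal genes and 44.2% of protein-coding genes exceeded.

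**Figure D3:**
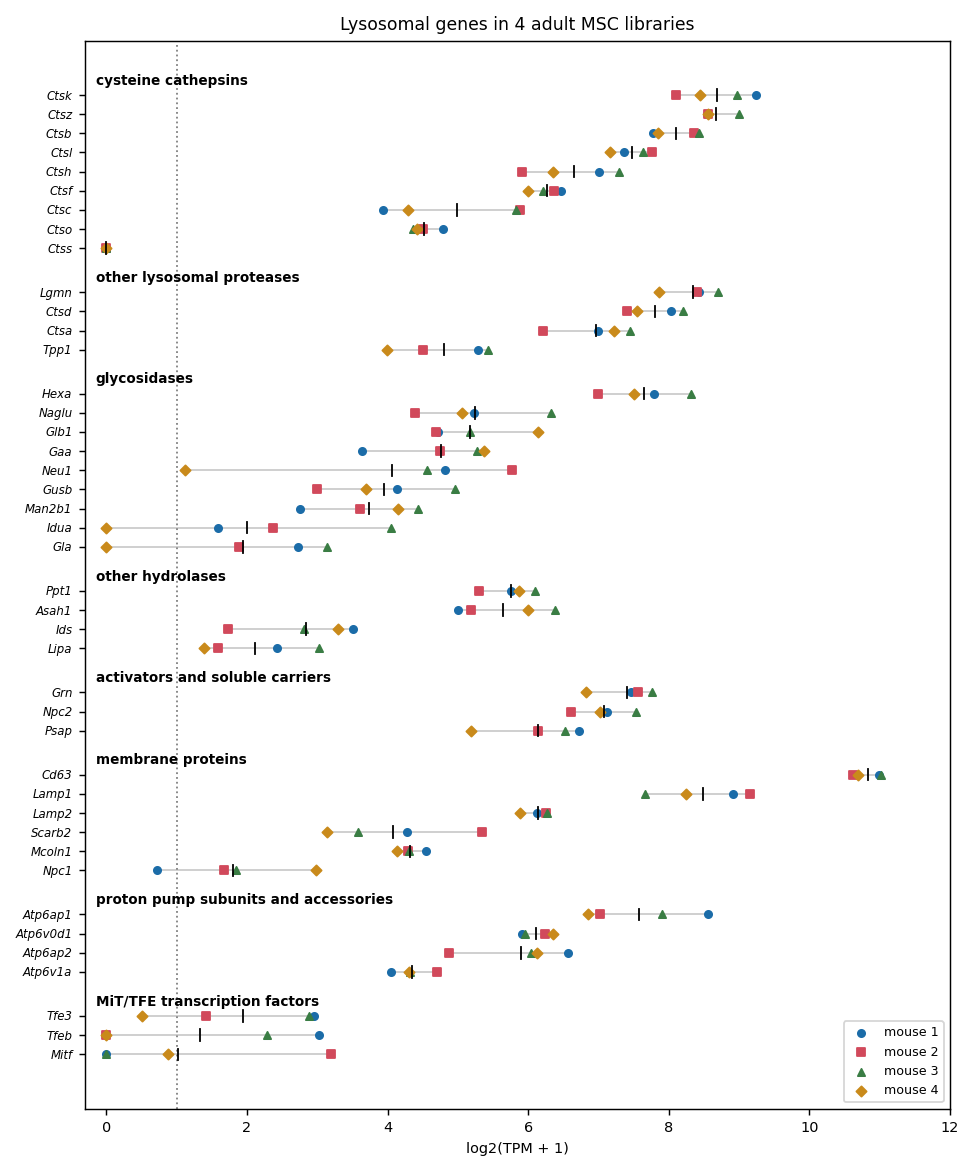
Level of each lysosomal gene in each of the 4 mice on a log2(TPM + 1) axis, grouped by role. Points are mice, black ticks are means of the log2(TPM + 1) values, grey lines span the range and the dotted line marks 1 TPM. Cd63 is highest at 1830 TPM in the mean, and Ctss is at 0 in every mouse.

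Cysteine cathepsins, the papain-like proteases of the lysosome, summed to 1540 ± 252 TPM (SD, n = 4 mice), and 8 of 9 exceeded 1 TPM in every mouse. Ctsk supplied 28.0% of that sum. Its level was 603, 274, 500 and 347 TPM in mice 1, 2, 3 and 4 (431 ± 148), from 16031, 4601, 13057 and 5429 counts. It was thus highest in mouse 1 and lowest in mouse 2. Ctss had 0 counts in all 4 libraries, where 3 counts would correspond to between 0.126 and 0.214 TPM. The genes are neighbours on chromosome 3 (GRCm38, chr3:95499256-95509362 for Ctsk and chr3:95526786-95556403 for Ctss), with 17424 bases between them. Ctsk was 1377-fold above the level of 3 Ctss counts in mouse 2 and 4799-fold in mouse 1, the lowest and the highest ratios. That floor reflects counting error alone, so these ratios are not lower bounds on the difference between the genes. Tfeb, past the cutoff in the median, had 715, 0, 380 and 0 counts in mice 1 to 4. Counts of 0 in at least 1 mouse occurred for 3 of the 40 genes past the cutoff.

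Ctsz, a carboxypeptidase, was the cathepsin nearest to Ctsk, with 372, 376, 512 and 377 TPM (409 ± 68.6), and the log2 difference between them was 0.02 ± 0.48 (SD, n = 4). Mouse 3 stood above the other mice, which lay within a few TPM of each other. Ctsb, an abundant endopeptidase, had 217, 327, 343 and 228 TPM (279 ± 65.4). Ctsl, an endopeptidase that also takes part in processing other lysosomal enzymes, had 163, 215, 198 and 143 TPM (180 ± 32.8). Mice 2 and 3 were the higher pair for both Ctsb and Ctsl. In each mouse Ctsk was above Ctsl per merged exon length, by 1.21 ± 0.64 on the log2(TPM + 1) scale (exact two-sided sign-flip permutation test, p = 0.13, adjusted p = 0.175 over 7 pairs). That order depends on the length chosen for Ctsl: with the shortest principal transcript, 1971 bases in place of 6489, the log2 difference was -0.51 ± 0.64, Ctsl came to 380 ± 70.8 TPM and Ctsk to 275 ± 90.4 TPM. Which of them had more transcripts is therefore not settled by these data. With 4 mice, 0.13 is the smallest p this test can give, so that no pair can pass 0.05. A pair with the same direction in all 4 mice gives that p whatever the size or spread of its difference.

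Among the remaining cysteine cathepsins, Ctsc, the dipeptidyl peptidase that activates granule serine proteases, had 14.2, 57.8, 55.8 and 18.6 TPM. It too was higher in mice 2 and 3. Ctsh, an aminopeptidase, had 128, 59.3, 156 and 81.1 TPM, and was lowest in mouse 2. Ctsf (76.3 ± 10.8 TPM) and Ctso (22.1 ± 3.12 TPM) varied least in this family, with coefficients of variation between mice near those of Lamp2.

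Markers of osteoclasts and macrophages stand beside Ctsk and Ctss. The 10 osteoclast markers summed to 88.7, 7.82, 72.9 and 14.7 TPM in mice 1 to 4, the same order of mice as for Ctsk. Acp5, the acid phosphatase TRAP, had 79.2, 0, 48.2 and 7.58 TPM and was the largest part of the sum in mice 1, 3 and 4. Itgb3, an integrin subunit that other cells also express, had 1.66, 6.96, 10.3 and 7.08 TPM and was the largest part in mouse 2, and Mmp9, a gelatinase, had 6.95, 0.813, 14.4 and 0 TPM. The erythroid genes given above have that order too. In mouse 2 Ctsk was at 274 TPM, beside 0 counts of Acp5, 457 of Itgb3 and 32 of Mmp9. Of the other osteoclast markers, Oscar and Dcstamp had 0 counts in all 4 mice, Ocstamp had 53 counts in mouse 1 alone, and Atp6v0d2, Calcr, Tnfrsf11a and Siglec15 were at or near 0. The part of osteoclast or erythroid RNA in the order of the mice was not tested. Of 12 macrophage markers, 7 had 0 counts in all mice (Adgre1, Csf1r, C1qa, C1qc, Lyz2, Fcgr1 and Itgam), as Ctss did. The macrophage list summed to 3.93, 9.55, 23.7 and 6.35 TPM, and Cd163, the marker above 1 TPM in every mouse, made up 3.38, 9.28, 7.60 and 5.33 TPM of it. In mouse 3 the list also included 176 counts of C1qb and 144 of Cd68.

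**Figure D4:**
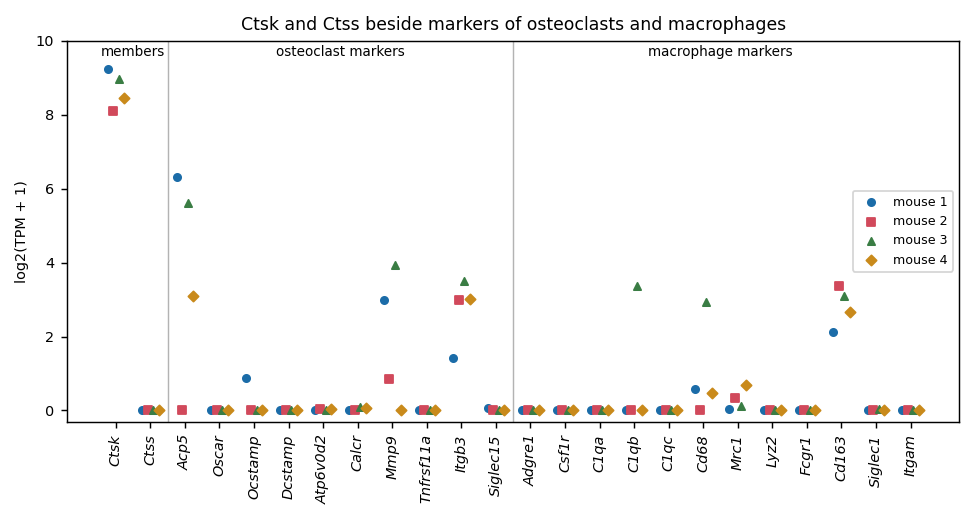
Levels of Ctsk and Ctss beside 10 osteoclast and 12 macrophage markers in each of 4 mice, on a log2(TPM + 1) axis. Ctsk lies between 274 and 603 TPM in all mice, Ctss at 0, Acp5 between 0 and 79.2 TPM, and most other markers at or near 0.

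The other lysosomal proteases summed to 718 ± 161 TPM, and all 4 exceeded 1 TPM in every mouse. Lgmn, the asparaginyl endopeptidase legumain, supplied 46.2% and had 343, 338, 415 and 231 TPM (332 ± 75.6). The aspartic protease Ctsd had 261, 169, 293 and 185 TPM (227 ± 59.5). Mice 1 and 3 were the higher pair for Ctsd, whereas mice 2 and 3 were for Ctsb. Ctsd and Ctsb differed by -0.30 ± 0.50 on the log2(TPM + 1) scale, less than the spread between mice, with Ctsd higher in 1 of 4 mice (exact sign-flip permutation test, p = 0.375, adjusted p = 0.375). Ctsa, which protects beta-galactosidase and neuraminidase in a complex, had 127, 72.7, 174 and 148 TPM. Its partners Glb1 and Neu1 varied in other ways, as given below. Tpp1, a tripeptidyl peptidase lost in a childhood neuronal ceroid lipofuscinosis, was lowest of this group at 29.2 ± 12.9 TPM.

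Glycosidases, which take sugars off glycans and glycolipids, summed to 385 ± 125 TPM. All 9 passed the cutoff in the median and 7 did in every mouse. Hexa, the alpha subunit of beta-hexosaminidase, supplied 54.6% of the sum, with 219, 126, 316 and 180 TPM (210 ± 80.1). Naglu, which degrades heparan sulfate, had 36.4, 19.9, 79.3 and 32.5 TPM, and Gusb, the beta-glucuronidase, 16.6, 7.02, 30.1 and 11.9 TPM. Hexa, Naglu and Gusb were each highest in mouse 3 and lowest in mouse 2. Glb1, the beta-galactosidase, had instead its highest level in mouse 4, with 25.3, 24.8, 35.1 and 69.4 TPM. Gaa, the acid alpha-glucosidase that degrades glycogen, was also highest there, with 11.5, 25.8, 37.5 and 40.5 TPM.

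Neu1, the lysosomal sialidase, had 27.3, 53.4, 22.6 and 1.17 TPM, which is a 45.7-fold range. Its 45 counts in mouse 4 stand against 1455 to 2216 in the other mice. Glb1, its partner in the complex with Ctsa, was highest in the mouse in which Neu1 was lowest. Gla had 5.64, 2.7, 7.80 and 0 TPM, and Idua, the alpha-L-iduronidase, 2.00, 4.17, 15.5 and 0 TPM. Both thus had 0 counts in mouse 4, the library with the fewest counts. Man2b1, an alpha-mannosidase, had 13.6 ± 6.46 TPM and was above 1 TPM in all mice. Among the 40 genes past the cutoff, 3 (Gla, Idua and Tfeb) had 0 counts in at least 1 mouse, against 14.4% of the protein-coding genes past it.

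The other hydrolases summed to 118 ± 37.1 TPM, and all 4 exceeded 1 TPM in every mouse. Ppt1, which removes palmitate from proteins, had 53.2, 38.4, 67.2 and 57.2 TPM (54.0 ± 11.9). Asah1, the acid ceramidase, had 31.1, 35.4, 82.6 and 63.0 TPM, so that mice 3 and 4 were the higher pair. Ids, an iduronate sulfatase, was low at 6.88 ± 3.52 TPM, as was Lipa, the acid lipase that frees cholesterol from its esters, at 3.80 ± 2.56 TPM.

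Activators and soluble carriers summed to 385 ± 91.1 TPM. Grn, which encodes progranulin, had 175, 188, 215 and 112 TPM (173 ± 43.6), and Psap, the precursor of the saposins that present sphingolipids to hydrolases, had 104, 69.6, 90.8 and 35.3 TPM. Both were lowest in mouse 4. Npc2, which hands cholesterol from the lumen to the membrane protein NPC1, had 138, 97.1, 184 and 129 TPM (137 ± 36.1). Npc1 itself had 0.643, 2.21, 2.59 and 6.92 TPM (3.09 ± 2.69). Npc2 exceeded Npc1 in each mouse, by 5.27 ± 1.02 on the log2(TPM + 1) scale (exact sign-flip permutation test, p = 0.13, adjusted p = 0.175).

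Membrane proteins had the highest sum of the 8 groups, 2329 ± 243 TPM, and Cd63 made up 78.6% of it. Cd63, a tetraspanin of late endosomes, lysosomes and exosomes, had 2038, 1573, 2061 and 1647 TPM (1830 ± 256) and ranked 42nd among protein-coding genes by median TPM. In the order of the 42 genes by mean TPM, Cd63 over Ctsk was the sole step between neighbours that exceeded its spread between mice, at 2.14 ± 0.32 on the log2(TPM + 1) scale, higher in 4 of 4 mice. Each of the other 40 steps was within 1 SD. Lamp1 had 480, 568, 201 and 304 TPM (388 ± 166), and Lamp2, its relative that also serves chaperone-mediated autophagy, had 69.0, 75.2, 76.1 and 58.2 TPM (69.6 ± 8.27). Lamp1 was thus the lower in mice 3 and 4, while Lamp2, with a coefficient of variation of 11.9%, varied least of the 41 genes with counts. Lamp1 exceeded Lamp2 in each mouse by 2.36 ± 0.69 on the log2(TPM + 1) scale (exact sign-flip permutation test, p = 0.13, adjusted p = 0.175). The size of that difference also moves with length: it was 1.23 ± 0.69 with the shortest principal transcripts.

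Scarb2, the receptor that carries glucocerebrosidase to the lysosome, had 18.3, 39.5, 11.0 and 7.85 TPM. It shared with Lamp1 the order of mice 2 and 1 above 3 and 4. Mcoln1 was even across mice at 22.3, 18.6, 18.7 and 16.5 TPM (19.0 ± 2.42). With a principal transcript of 2065 bases in place of 7555 bases of merged exons, its mean was 44.6 TPM, and that of Cd63, with 1043 in place of 3682 bases, was 4138 TPM.

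The proton pump subunits and accessories summed to 366 ± 129 TPM, of which Atp6ap1 supplied 58.4%. Atp6ap1, an accessory protein needed for assembly of the pump, had 374, 129, 237 and 115 TPM (214 ± 120), so that mice 1 and 3 lay above mice 2 and 4. Atp6ap2, the prorenin receptor, had 93.4, 28.5, 64.6 and 68.5 TPM (63.7 ± 26.7). Atp6ap2 was the lower of these accessory genes in each mouse, with a difference of -1.68 ± 0.64 on the log2(TPM + 1) scale (exact sign-flip permutation test, p = 0.13, adjusted p = 0.175). Atp6v0d1, a subunit of the membrane sector, had 59.2, 74.7, 61.0 and 80.8 TPM, and Atp6v1a, the catalytic subunit, 15.5, 25, 19.0 and 18.8 TPM. Both subunits were lowest in mouse 1, where the accessory genes were highest.

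The MiT/TFE factors were the lowest group, at 8.82 ± 5.36 TPM in sum, and none of the 3 exceeded 1 TPM in every mouse. Tfeb had 715, 0, 380 and 0 counts (7.17, 0, 3.88 and 0 TPM), and Mitf had 0, 562, 0 and 54 counts (0, 8.15, 0 and 0.843 TPM). No mouse had counts of both Tfeb and Mitf. Tfe3 was counted in every mouse, at 6.75, 1.67, 6.40 and 0.428 TPM. Like Tfeb, it was higher in mice 1 and 3, the libraries with the most counts. Tfe3 and Tfeb differed by 0.61 ± 0.61 on the log2(TPM + 1) scale, with Tfe3 higher in 3 of 4 mice (exact sign-flip permutation test, p = 0.25, adjusted p = 0.292).

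The spread between mice followed the level. The median coefficient of variation of the 40 lysosomal genes past the cutoff was 41.7%, and that of 9684 protein-coding genes past it was 55.3%. At like mean levels the values were close: 85.9% for 8 lysosomal genes against 84.7% between 1 and 10 TPM, 44.2% for 19 genes against 44% between 10 and 100, and 26.3% for 13 genes against 24.7% between 100 and 1000. Poisson counting of reads alone would give medians of 5.81%, 2.79% and 1.23% in these ranges, a lower limit that leaves out the sampling of 100 cells and PCR. The order of the 42 genes was alike between mice, with Spearman coefficients between 0.909 and 0.952 across genes for the 6 pairs of mice, as a description, since genes are not independent replicates. Over the protein-coding genes past the cutoff, which span another range of levels, the coefficients lay between 0.660 and 0.815.

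**Figure D5:**
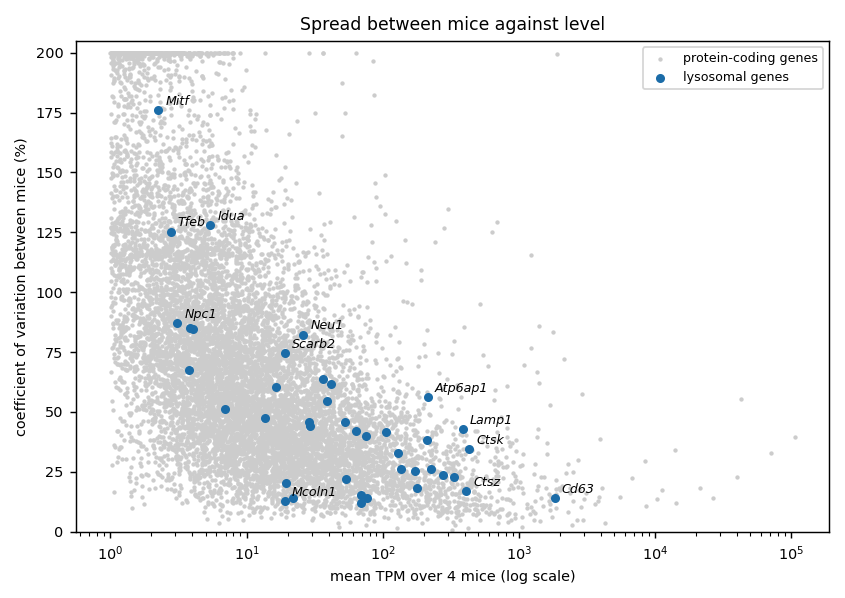
Coefficient of variation between the 4 mice in percent against mean TPM on a log axis, for lysosomal genes (blue) among protein-coding genes with a mean of at least 1 TPM (grey). The lysosomal genes lie within the grey cloud at each level, from Mitf and Idua at the top to genes such as Mcoln1 near the bottom.

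Summed over the 42 genes, the level was 6431, 5266, 6762 and 4942 TPM in mice 1 to 4, between 0.494% and 0.676% of all TPM. Mouse 3 was the highest for 20 of the 40 genes past the cutoff (50%), and for 31.3% of protein-coding genes past it. The 10 genes of highest median TPM were next left out of the denominator. Mouse 3 was then the highest for 15 of 40 genes (37.5%) and for 24.7% of protein-coding genes. The sums became 9753, 8622, 9829 and 8628 in mice 1 to 4. With libraries rescaled by TMM factors, the sum was highest in mouse 1 (6752) and was 6490 in mouse 3. Mouse 3 was then the highest for 18 of 40 genes (45%). Over protein-coding genes it was the highest for 27.2%, and mouse 1 for 31.1%. Mouse 3 was also the mouse with the highest summed macrophage markers, whose part in these levels was not tested.

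Other lysosomal genes were taken from 6 lists of the same organelle, and the leading genes of each are those of highest median TPM, given with their means. Of 29 further hydrolases and activators, 25 had a median above 1 TPM, led by Scpep1 (111 ± 50.1 TPM), Fuca1 (99.3 ± 17.1) and Aga (75.8 ± 37.6), and Ctsg and Ctsj had 0 counts everywhere. Of 22 further membrane proteins, 15 passed, led by Laptm4a at 588 ± 210 TPM, Laptm4b at 55.6 ± 29.5 and Slc17a5 at 17.3 ± 9.30, and Lamp5 and Laptm5 had 0 counts. Both of these lists lie above the 44.2% of protein-coding genes that passed. So do the lists given below of further pump subunits (71.4%), mannose 6-phosphate genes (87.5%) and nutrient sensing genes (76.5%). The list of cathepsin inhibitors lies under it, at 33.3%. Of 21 further pump subunits, 15 passed, led by Atp6v1g1 (337 ± 33.8 TPM), Atp6v1f (239 ± 32.6) and Atp6v0b (215 ± 45.5), and Atp6v1g3 had 0 counts. Of the pump genes known from osteoclasts, named here after their values were seen, Tcirg1 had 11.4 ± 8.74 TPM, in the middle of its list, and Atp6v0d2 at most 1 count in a mouse.

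Of 8 genes for the mannose 6-phosphate tag and its receptors, 7 passed, led by Gnptg (68.8 ± 12.7 TPM), M6pr (49.5 ± 40.7) and Nagpa (17.4 ± 14.5, with 0 counts in mouse 2). Of 17 genes for nutrient sensing at the lysosome and control of the MiT/TFE factors, 13 passed, led by Lamtor5 at 256 ± 27.7 TPM, Lamtor2 at 160 ± 56.0 and Ywhaz at 120 ± 27.5, and Rragb had 0 counts. Of 9 cathepsin inhibitors, 3 passed (33.3%): the secreted cystatin Cst3 at 8550 ± 916 TPM, the cytosolic Cstb at 450 ± 109 and Serpinb6a at 31.0 ± 7.74. Cst3 was thus several times the summed level of all 9 cysteine cathepsins, and the other inhibitors, Cst6, Cst7, Csta1, Stfa1, Stfa2 and Stfa3, had 0 counts in every library.

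Annotation limits some of these levels. For 12 of the 42 genes, exonic bases are shared with another gene, where unstranded counting leaves a pair that hits both genes uncounted. The largest shares with a single other gene were 34.4% of the exons of Ctsd (with Gm49369, at 0 counts), 26.8% of Ctsl (with the antisense Gm47123, at 0 counts), 12.8% of Ctsb (with Fdft1) and 12.8% of Hexa (with Tmem202, at 0 counts), and Ctsa shares 10.5% with Pltp and 6.87% with Neurl2, both of which had counts in every mouse. These levels may therefore be too low. Stretches of at least 100 bases with 95% identity to other transcripts were found for 13 genes, the longest by share being those of Ctsd, Ctsl and Cd63. For Ctsd, Ctsb, Ctsa, Hexa, Glb1, Idua, Ppt1 and Lamp1, all such transcripts belong to genes that share exonic bases with them. For these genes the stretches are therefore not a separate limit. No such stretch was found for Ctsk, Ctss or the MiT/TFE factors. The share of all genes with shared exonic bases or with such stretches was not computed.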

How the data were processed

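The authors aligned 100-base read pairs to GRCm39 with STAR 2.7.10, used featureCounts (Subread 1.6.5) without a strand option to assign unique pairs to Ensembl exons, and deposited raw counts for each library. bcl2fastq 2.20.0 is named in the submitters' processing notes.

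TPM was computed from the counts in Python 3.11.15 (pandas 2.3.3, scipy 1.17.1) with merged exon lengths of GENCODE M21 on GRCm38, matched by gene identifier. No coordinates were converted, so the TPM of a gene is wrong by the ratio of its lengths where the annotations differ. Lengths were found for 52125 genes, which held between 96.1% and 98.2% of the counts, and 4855 genes were left out. Depths of 22738604 to 43545349 counts put 3 counts at 0.0689 to 0.132 per 1000000 counts. These floors reflect counting error alone, because PCR copies of a cDNA are not separate molecules. Differences between 7 pairs of genes within a mouse were tested on log2(TPM + 1) by flipping signs over mice (exact permutation, two-sided), with p-values adjusted by the Benjamini-Hochberg method. Near-identical stretches were searched with BLAST 2.17.0, and TMM factors came from edgeR 4.0.16. On simulated data the TPM code placed 50138 of 50166 clear genes on the right side of the cutoff. The simulated counts varied by Poisson error alone around 1 level per gene shared by all mice, and genes near the cutoff were not scored. The result checks the code and does not measure how reliably genes are called in these libraries.

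All 42 genes are named, with the 3 highest genes and any gene at 0 counts of each further list, the genes that share bases with them and the markers needed. The genes and lists were chosen with earlier results of these data known. The alternatives were the longest transcript, no length, TMM factors, the 10 highest genes left out of the denominator, other cutoffs, a pseudocount of 0.1 and leaving out each mouse. The shortest principal transcript was added after the data were seen. No table of protein sequences was used here.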

Additional observations from a re-analysis of the deposited data

Results flagged for a closer look

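In the 50 values tested for a mouse far from the others of its group, 2 passed Dixon's critical value, where 2.5 would be expected at 1 in 20. Ctsz in mouse 3 (512 TPM, against 372 to 377 in the other mice) had a gap of 0.969 of the whole range, and Mitf in mouse 2 (8.15 TPM, against 0 to 0.843) a gap of 0.897.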

How the results depend on the processing

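The number of genes past the cutoff was 40 and stayed between 34 and 41 under every alternative run, with 34 at a median above 5 TPM and 35 at above 1 TPM in every mouse. Of the 7 pairs, Ctsk against Ctsl turned, to a log2 difference of -0.89 without length and of -0.51 with the shortest principal transcript. Of the others, which kept their direction, Lamp1 over Lamp2 fell as low as 0.54, Ctsd against Ctsb ranged from -1.66 to -0.09 and Tfe3 over Tfeb from 0.34 to 1.79. Without length, the summed levels, in counts per 1000000, were 2221 for cysteine cathepsins, 185 for other hydrolases, 650 for activators and carriers, 3677 for membrane proteins and 26.7 for MiT/TFE factors. With the 10 highest genes left out of the denominator they were 2423 for cysteine cathepsins, 1126 for other proteases, 604 for glycosidases, 186 for other hydrolases, 602 for activators and carriers, 3680 for membrane proteins and 573 for pump genes. With the shortest principal transcript the membrane proteins summed to 4621 TPM. The median coefficient of variation lay between 31.1% and 41.9% when 1 mouse was left out, and was lowest without mouse 2. Rescaling by TMM factors, between 0.952 and 1.04, moved none of these results beyond the spread between mice. It did change which mouse had the highest sum of the 42 genes, from mouse 3 to mouse 1. No analysis paired between conditions was possible because all libraries belong to 1 group.

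Single mice are 100 cells each, so a gene at 0 counts in a mouse was not detected there, which does not show that it was absent. Levels between genes rest on annotated lengths of another build, and with 4 mice the exact sign-flip test cannot pass 0.05.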

Other observations

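Some values outside the lists' leading genes were noticed after they were seen. Ctse, an aspartic protease also known from red cells, had 9706, 1, 1208 and 167 counts (174, 0.0284, 22.1 and 5.10 TPM) in mice 1 to 4, the same order of mice as the summed erythroid genes (4980, 35.0, 1708 and 358 TPM). Ctsk and the summed osteoclast markers have that order too. The part of erythroid RNA in the level of Ctse was not tested. Flcn, a regulator of the MiT/TFE factors, had 23.8, 2.41, 21.4 and 1.63 TPM, and Tfe3 had 6.75, 1.67, 6.40 and 0.428 TPM. Both were thus higher in mice 1 and 3. Those were also the libraries with the most counts, and the part of depth in this was not tested. Tfec, the remaining member of the MiT/TFE family, was counted in mouse 2 alone (88 counts, 1.41 TPM), the mouse with the highest Mitf. Rragd, a RAG GTPase, had 291 counts there (5.06 TPM) and at most 1 count in any other mouse.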
